A study of Danio rerio with 4 samples.

Results

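Pancreatic islet cells and the scattered hormone cells of the gut release peptides from dense-core granules, and 10 zebrafish genes of this kind were followed here among the 27472 genes of the deposited expression table. They were picked by name, with earlier results of these data known. The 10 were 6 hormone or peptide genes (ins, gcga, sst1.1, sst2, vipb and pyyb), 2 regulators of endocrine cells (pdx1 and neurod1) and 2 secretory granule genes (scg3 and pcsk1). 9 were found by symbol. sst1.1 is listed under the shortened symbol sst1 and was taken by its description in the table, which names it as a tandem duplicate of somatostatin.

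Whole AB-strain zebrafish (Danio rerio) were sampled 72 hours after fertilization (72 hpf). The control group was given dimethyl sulfoxide (DMSO, the usual solvent control) and the other group 4 µM bisphenol C (BPC, a bisphenol), both from 4 hpf. Each group had 2 libraries, numbered 1 and 3. The title of the series concerns growth of liver and gut cells under BPC. The labels do not give the larvae pooled per library or their clutches, so the spread between libraries may be technical in part.

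In the islet, beta cells make insulin, alpha cells glucagon and delta cells somatostatin, while enteroendocrine cells of the gut make peptides such as peptide YY. A prohormone is packed into granules with granins and cut by prohormone convertases before release. Many of these genes are not restricted to islet or gut: somatostatin, vasoactive intestinal peptide, granins and prohormone convertases are also made in neurons, and neurod1 is active in the developing brain and retina.

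Values are FPKM (sequenced fragments relative to transcript length and to all fragments mapped in the library). The test was limma on log2(FPKM + 1), a scale that understates the change of low genes, with Benjamini-Hochberg adjustment over the 19873 genes that reached 0.5 FPKM in at least 2 libraries and a threshold of 0.05. Library totals were 355364 to 355583 FPKM in DMSO and 422245 to 425611 FPKM in BPC. Depth is unknown. Across genes, which are not independent replicates, log2 values correlated at 0.989 within DMSO, 0.972 within BPC and 0.928 to 0.941 between groups. The median gene had a log2 change of -0.12, so a member at that value stood level with the typical gene.

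6 of the 10 genes fell in BPC larvae: sst1.1, vipb and pyyb among the hormones, neurod1 among the regulators, and both granule genes, scg3 and pcsk1. None rose past the threshold, and limma gave 0 members higher at an unadjusted p under 0.05 as well. ins, gcga, pdx1 and sst2 had no call. Of all genes tested, 17.5% were called lower and 7.06% higher, and with median centring the balance over all genes turned, with 1997 lower and 2441 higher. The members' median log2 change was -0.72, against -0.12 over all genes tested. The members were chosen with earlier results of these data known, and vipb passed the filter only through its DMSO libraries. The gap to all genes is therefore not a test of the set. In 9 of the 10 genes both BPC libraries lay below both DMSO libraries, a pattern that 45.1% of all genes tested shared. Since whole larvae were sequenced, fewer cells of a type and less RNA per cell cannot be told apart.

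**Figure D1:**
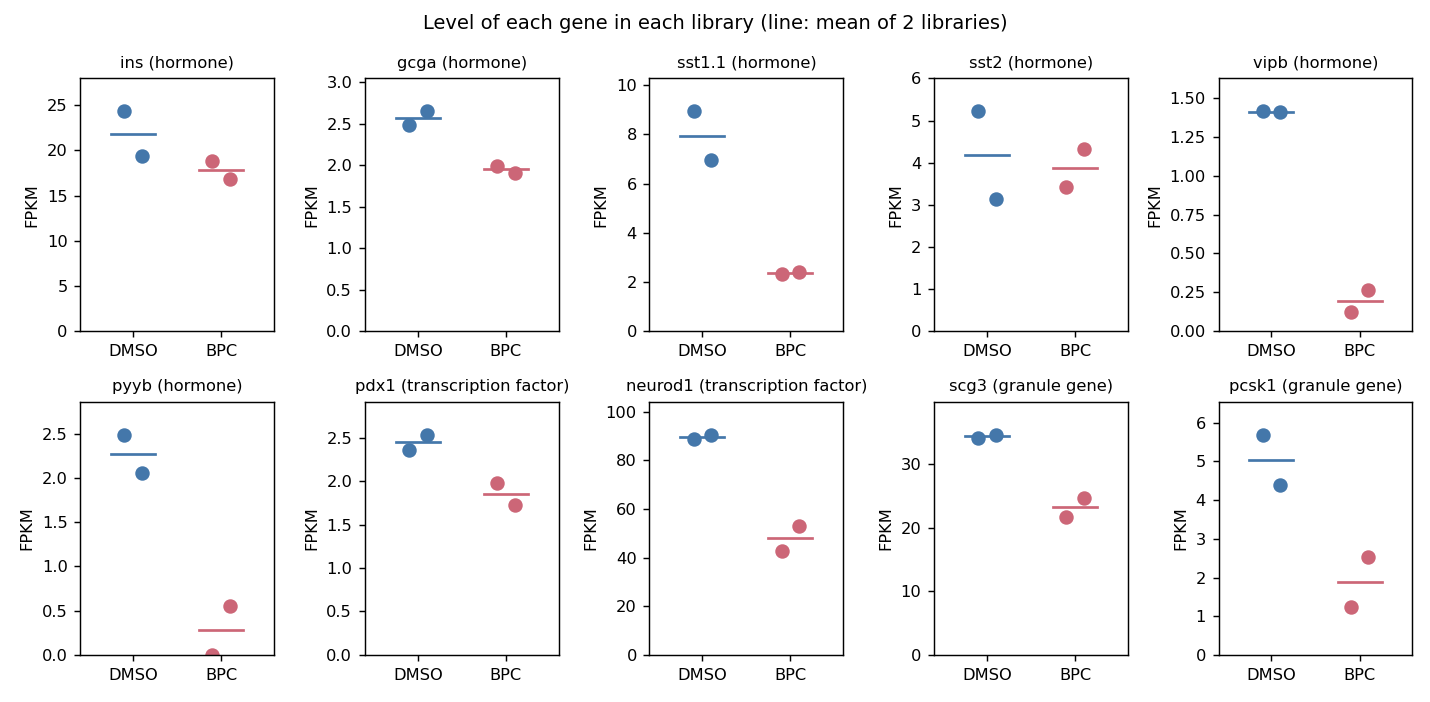
FPKM of each of the 10 genes, 1 panel a gene with its own linear axis from 0, with a point for each DMSO (blue) and BPC (red) library and a line at each group mean. sst2 is the only gene of the 10 whose groups overlap, and pyyb has 1 BPC library at a listed 0.

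ins, the insulin gene of beta cells (ENSDARG00000035350), was the most abundant hormone of the 6. It measured 24.3 and 19.4 FPKM in DMSO libraries 1 and 3 and 18.8 and 16.8 FPKM in BPC libraries 1 and 3. The groups did not overlap, but the lower DMSO library and the higher BPC library were close. Means were 21.8 ± 3.47 FPKM and 17.8 ± 1.43 FPKM (SD, n = 2), and the log2 change of -0.27 (95% interval -0.61 to 0.06) had an adjusted p of 0.191 by limma.

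gcga, a glucagon precursor gene of alpha cells (ENSDARG00000079296), was low in every library, at 2.48 and 2.65 FPKM in DMSO and 1.99 and 1.91 FPKM in BPC. Both BPC values lay below both DMSO values. The log2 change of FPKM + 1 was -0.27, as for ins (95% interval -0.58 to 0.03, adjusted p = 0.163 by limma). That scale understates low genes, and the mean was 1.32-fold lower for gcga against 1.23-fold lower for ins.

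sst1.1 (ENSDARG00000040799), one of the zebrafish somatostatin genes, was clearly lower. It measured 8.94 and 6.96 FPKM in DMSO against 2.34 and 2.42 FPKM in BPC, so the groups were far apart and the BPC pair was tight. The mean was 3.34-fold lower, with a log2 change of -1.40 (SE 0.15, 95% interval -1.75 to -1.04, adjusted p = 0.00316 by limma).

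sst2 (ENSDARG00000014190), a further somatostatin gene, measured 5.22 and 3.13 FPKM in DMSO and 3.42 and 4.32 FPKM in BPC. Its groups overlapped, with the highest and the lowest library both in DMSO. The log2 change was -0.06 (95% interval -0.58 to 0.46, adjusted p = 0.853 by limma), an interval that covers moderate change either way, and it was 0.09 with median centring and 0.10 with quantile scaling.

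vipb, which encodes a vasoactive intestinal peptide precursor (ENSDARG00000079443), measured 1.41 FPKM in both DMSO libraries and 0.127 and 0.268 FPKM in BPC. The DMSO libraries were nearly equal and both BPC libraries were close to 0. The mean was 7.15-fold lower, with a log2 change of -1.01 (SE 0.14, adjusted p = 0.00585 by limma). vipb passed the filter on low values only through its DMSO libraries, so its test is tied to that filter. It was called lower in the 10 alternatives in which it was tested.

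pyyb, a peptide YY gene (ENSDARG00000035832), measured 2.48 and 2.06 FPKM in DMSO. It is listed at 0 in BPC library 1 and measured 0.554 FPKM in BPC library 3. Both BPC libraries were below both DMSO libraries, and no fold is given because of the listed 0. The log2 change was -1.39 (SE 0.22, adjusted p = 0.00936 by limma), and with a pseudocount of 0.01 in place of 1 the adjusted p was 0.0992, within a range of 0.00311 to 0.0992 over its alternatives.

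pdx1, the homeobox factor of pancreas and beta cells (ENSDARG00000002779), measured 2.36 and 2.53 FPKM in DMSO and 1.98 and 1.73 FPKM in BPC. The groups did not overlap, and the gap was small. Its log2 change of -0.27 (95% interval -0.59 to 0.05, adjusted p = 0.176 by limma) was close to those of ins and gcga on the log2(FPKM + 1) scale. The mean of pdx1 was 1.32-fold lower, against 1.23-fold for ins.

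neurod1, a basic helix-loop-helix factor of endocrine cells and neurons (ENSDARG00000019566), was the most abundant of the 10 genes. It measured 88.6 and 90.3 FPKM in DMSO and 42.7 and 53.0 FPKM in BPC. The DMSO libraries were nearly equal, and both BPC libraries were well below them. The mean was 1.87-fold lower (89.5 ± 1.21 against 47.9 ± 7.26 FPKM, SD, n = 2), with a log2 change of -0.90 (SE 0.13, adjusted p = 0.00701 by limma).

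scg3, a granin-family protein of the granule membrane (ENSDARG00000086288), measured 34.1 and 34.5 FPKM in DMSO and 21.6 and 24.7 FPKM in BPC. Groups were well separated. The mean was 1.48-fold lower, with a log2 change of -0.55 (SE 0.11, adjusted p = 0.0173 by limma). The call was lost without DMSO library 1 (adjusted p = 0.123) and without DMSO library 3 (adjusted p = 0.123), in a range of 0.00439 to 0.123 over its alternatives.

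pcsk1, a convertase that cuts prohormones at pairs of basic residues (ENSDARG00000002600), measured 5.68 and 4.402 FPKM in DMSO and 1.24 and 2.53 FPKM in BPC. The groups did not overlap, although the libraries of each group were uneven. The mean was 2.68-fold lower, with a log2 change of -1.10 (SE 0.24, adjusted p = 0.0213 by limma). Its call was lost without DMSO library 1 (adjusted p = 0.0955) and with no filter on low values (adjusted p = 0.0700), in a range of 0.00501 to 0.0955 over its alternatives.

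**Figure D2:**
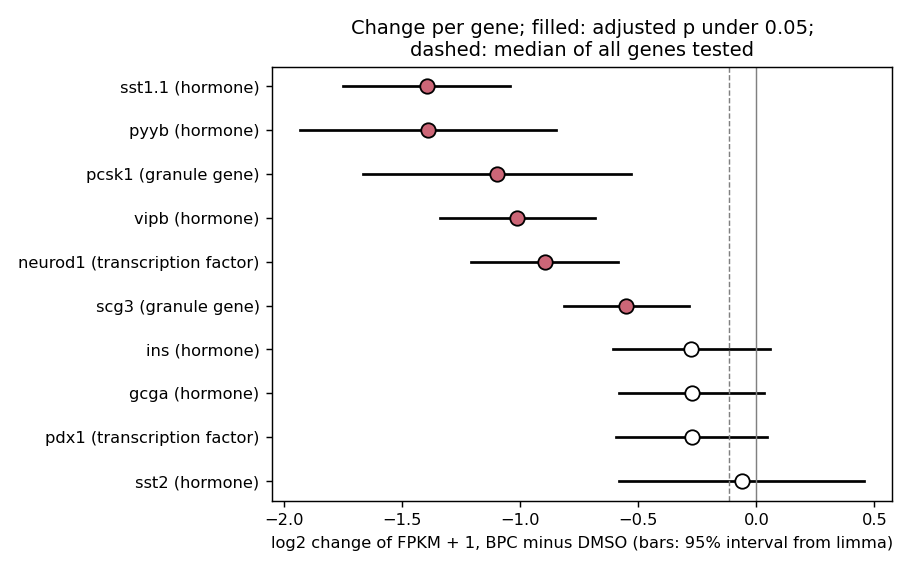
Fitted log2 change of each gene, BPC minus DMSO on the log2(FPKM + 1) scale, with 95% limma intervals, filled points for adjusted p under 0.05 and a dashed line at the median of all genes tested. The intervals of ins, gcga, pdx1 and sst2 cross 0, and those of the other 6 genes lie below it.

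By DMSO mean, which is comparable between genes as FPKM is per length, the order was neurod1, scg3, ins, sst1.1, pcsk1, sst2, gcga, pdx1, pyyb and vipb. The DMSO values of neighbours overlapped for pcsk1 and sst2, for gcga and pdx1 and for pdx1 and pyyb. In the authors' deposited table, 6.44% of all genes were called lower, and among the members 3 were: sst1.1 (log2 ratio -1.74, q = 9.66e-05), vipb (-2.84, q = 8.44e-05) and pcsk1 (-1.42, q = 0.00495). That table's calls also need a 2-fold change. It gives neurod1 a log2 ratio of -0.90 with q = 1.07e-05 and scg3 -0.57 with q = 0.0204, both without a call, and pyyb -3.04 with q = 0.0849.

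Several members have a closely related gene in the zebrafish genome, and 6 such pairs were compared within each library as a difference of log2(FPKM + 1). With 2 libraries against 2, an exact two-sided permutation test cannot go below p = 0.333. Pairs did not overlap between the groups in 5 of the 6 comparisons, each at that smallest exact p of 0.333, or 0.400 after Benjamini-Hochberg adjustment over the 6. The member in each of these 5 had a lower call, and sst1.1 stands in 2 of them, so the count largely repeats those calls. The share of all gene pairs without overlap was not determined.

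sst1.1 exceeded its tandem neighbour sst1.2 in DMSO, by 0.998 and 1.06, and was below it in BPC, by differences of -0.52 and -0.43. sst1.2 itself measured 3.98 and 2.83 FPKM in DMSO and 3.78 and 3.61 FPKM in BPC, with no call (log2 change 0.11, adjusted p = 0.657 by limma). The order of this somatostatin pair was thus opposite in the 2 groups. In the RefSeq gene table of assembly GRCz12tu the pair lies on 1 chromosome with 2 gene starts between them, 1 of them protein coding. Copies of this kind can share reads, so the split between them is uncertain. sst1.1 minus sst2 was 0.68 and 0.95 in DMSO and -0.40 and -0.64 in BPC.

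pyyb lay below pyya, the other peptide YY gene, in every library, by -1.58 and -1.50 in DMSO and -3.18 and -2.83 in BPC. pyya measured 9.40 and 7.64 FPKM in DMSO and 8.08 and 10.0 FPKM in BPC, overlapping groups with no call (log2 change 0.08, adjusted p = 0.734 by limma). vipb minus vip was -0.41 and -0.51 in DMSO and -1.09 and -1.08 in BPC, while vip itself had a log2 change of -0.39 with an adjusted p of 0.0842 by limma. gcga against gcgb overlapped between groups (-1.29 and -1.35 in DMSO, -1.40 and -1.15 in BPC, exact p = 1.0).

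For the convertases, pcsk1 minus pcsk2 was -0.37 and -0.07 in DMSO and -0.56 and -1.15 in BPC. pcsk2 was uneven within both groups, at 7.63 and 4.67 FPKM in DMSO and 2.31 and 6.81 FPKM in BPC, with no call (log2 change -0.46, 95% interval -1.42 to 0.50, adjusted p = 0.429 by limma).

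**Figure D3:**
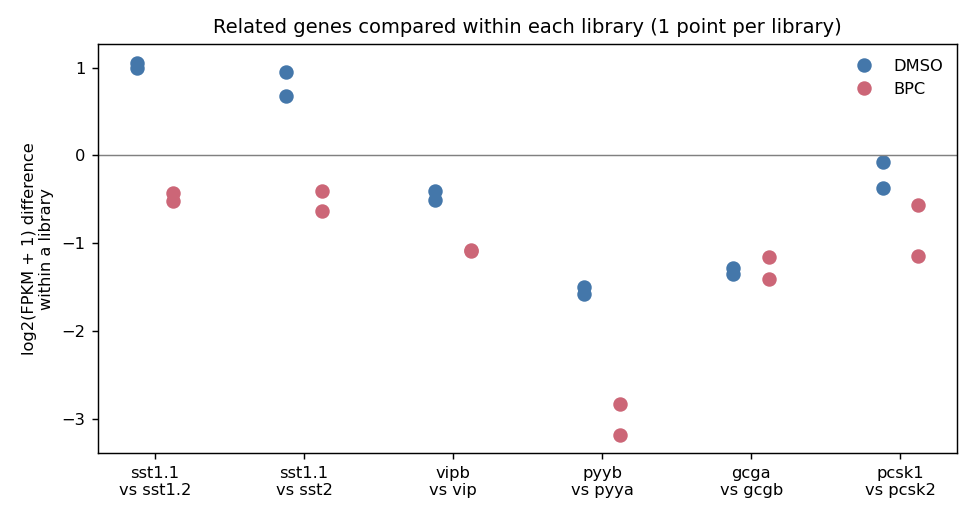
Difference of log2(FPKM + 1) between each member and its related gene in every library, DMSO and BPC as separate points. The sst1.1 pair with sst1.2 crosses 0 between the groups, and the gcga pair with gcgb overlaps.

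Among the members, the ratio of ins to pdx1 was 10.3 and 7.67 in DMSO and 9.52 and 9.72 in BPC, and that of ins to gcga was 9.79 and 7.33 against 9.47 and 8.80. Both ratios overlapped between the groups. The ratio of ins to sst1.1 was 2.72 and 2.79 in DMSO and 8.04 and 6.94 in BPC, with no overlap. Against the other regulator, neurod1, the ins ratio was 0.274 and 0.215 in DMSO and 0.441 and 0.317 in BPC, also without overlap. For pcsk1 to scg3, both called lower, it was 0.167 and 0.128 in DMSO and 0.0573 and 0.102 in BPC, again without overlap. The ratio of neurod1 to the pancreatic factor pdx1 was 37.5 and 35.7 in DMSO and 21.6 and 30.7 in BPC. Its ratio to the neuronal gene elavl3 was 1.22 and 1.18 in DMSO and 0.701 and 0.812 in BPC. Neither overlapped, and these ratios were not tested. Those of ins to sst1.1 and neurod1, and of neurod1 to pdx1 and elavl3, each set a gene called lower against a gene without a call. Their lack of overlap largely repeats those calls, and the share over all gene pairs was not determined. Relative to crx, a photoreceptor factor, the neurod1 ratio overlapped, at 2.09 and 2.14 in DMSO and 2.76 and 1.39 in BPC. In BPC crx itself was uneven, at 15.5 and 38.1 FPKM, against 42.4 and 42.1 FPKM in DMSO. It had no call, whereas 13 of 15 photoreceptor genes were lower.

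Of 20 further gut, islet and neural hormone genes tested, 7 fell and 1 rose. The list holds peptide genes and tph1b, a gene of serotonin synthesis, which had no call. With quantile scaling the balance turned (2 fell and 3 rose), and with TPM scaling 13 fell. Without DMSO library 1 none passed in either direction, and without DMSO library 3 only 1 fell. Their median log2 change was -0.37. penka, an enkephalin precursor, fell from 2.64 and 2.41 FPKM to 0.388 and 0.981 FPKM (adjusted p = 0.0124 by limma). tac1, the substance P precursor, fell from 10.4 and 9.19 to 6.31 and 5.63 FPKM (adjusted p = 0.0164 by limma). grp, gastrin-releasing peptide, rose from 3.00 and 3.04 to 6.06 and 5.32 FPKM (adjusted p = 0.0116 by limma). ccka, a cholecystokinin gene of gut endocrine cells and neurons, fell from 2.99 and 3.43 to 1.89 and 0.867 FPKM, cort, a somatostatin relative, from 7.82 and 8.64 to 4.55 and 5.74 FPKM, and mlnl, a motilin-like gene, from 0.576 and 0.700 to 0.114 FPKM and a listed 0. mlnl and 1 other of the 7, npy, passed the filter only through their DMSO libraries. adcyap1b, a PACAP gene and the most abundant of the list with pyya, had no call at 17.1 and 15.7 FPKM in DMSO and 14.8 and 14.5 FPKM in BPC. Each of these 6 calls was lost in at least 1 alternative.

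Of 39 other endocrine and gut regulators tested, 11 fell and 6 rose, but with median centring 6 fell and 8 rose, and with TPM scaling 16 fell and 3 rose. Without DMSO library 1 none passed in either direction, and without DMSO library 3 only 2 fell. 1 of the 11, pax4, passed the filter only through DMSO. The median log2 change was -0.14. foxa3 and hnf1ba, factors of gut and liver endoderm, fell from 6.32 and 5.57 to 2.97 and 2.71 FPKM and from 5.88 and 4.69 to 2.37 and 1.95 FPKM (adjusted p = 0.00779 and 0.00826 by limma). mafa, an activator of the insulin gene in mammals, fell from 4.88 and 4.68 to 2.62 and 2.66 FPKM, and hnf4a from 3.40 and 2.99 to 1.56 and 1.57 FPKM. prox1a fell from 18.5 and 18.2 to 12.04 and 12.7 FPKM, and isl1, a factor of islet cells and motor neurons, from 36.5 and 38.6 to 25.9 and 30.2 FPKM. insm1a, a zinc finger factor of developing endocrine cells and neurons, rose from 14.7 and 15.6 to 24.9 and 22.5 FPKM (adjusted p = 0.0123 by limma). neurod4, among the most abundant of the list, had no call. Each of these 7 calls was lost in at least 1 alternative. The gene related to insm1a, insm1b, was called the other way. It fell from 13.6 and 14.3 FPKM in DMSO to 9.29 and 10.2 FPKM in BPC (adjusted p = 0.028 by limma), and its alternatives are not given here.

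Of 27 other granule and exocytosis genes tested, 16 fell and 1 rose, with 9 to 23 lower over the scaling alternatives, 4 without DMSO library 1 and 7 without DMSO library 3. The median log2 change was -0.55. vgf, a granin-like precursor, fell from 4.54 and 4.74 to 1.65 and 1.77 FPKM (adjusted p = 0.00426 by limma). scg5, a chaperone of the convertase PCSK2, fell from 9.53 and 8.62 to 3.99 and 2.75 FPKM under one of its 2 identifiers (ENSDARG00000077045). The other identifier (ENSDARG00000032126) had no call. rab3ab, a small GTPase of vesicle release, fell from 22.2 and 17.8 to 6.62 and 9.59 FPKM, and rab3aa from 10.4 and 9.59 to 4.39 and 5.49 FPKM. scg2b, a granin, fell from 30.4 and 29.2 to 17.5 and 18.0 FPKM. The membrane fusion genes snap25b and snap25a fell from 52.9 and 46.9 to 13.7 and 25.1 FPKM and from 76.6 and 77.1 to 53.3 and 58.1 FPKM. cpe, the carboxypeptidase that trims cut prohormones, fell from 44.0 and 43.6 to 25.3 and 31.8 FPKM. vgf, scg5 and rab3ab kept their calls in every alternative, and the other 5 genes named here lost theirs in at least 1. Many genes of this list, such as snap25a and rab3aa, are also made in neurons. 1 of the 16 passed the filter only through its DMSO libraries.

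Of 17 glucose sensing and handling genes tested, 4 fell and 3 rose, but with median centring 2 fell and 3 rose, and with TPM scaling 9 fell and 1 rose. Without either DMSO library none of those tested fell and 1 rose, and gck was not tested there because it passed the filter only through its 2 DMSO libraries. gck, glucokinase, which in mammals sets the glucose threshold of beta cells and also acts in liver, fell from 5.93 and 6.82 to 0.0544 and 0.208 FPKM (adjusted p = 0.000562 by limma). g6pc1a.1, a glucose 6-phosphatase gene, rose from 2.47 and 1.99 to 6.37 and 5.76 FPKM (adjusted p = 0.00458 by limma). Both were called in every alternative in which they were tested. cacna1c, a calcium channel subunit, fell from 3.78 and 3.61 to 1.77 and 1.99 FPKM, and slc2a1a, a glucose transporter, from 3.41 and 3.68 to 1.48 and 2.34 FPKM. pck2 and irs2a rose, from 24.3 and 22.6 to 46.5 and 33.7 FPKM and from 4.37 and 5.00 to 8.61 and 6.66 FPKM, and pck1 had no call. The calls of cacna1c, slc2a1a, pck2 and irs2a were lost in at least 1 alternative.

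**Figure D4:**
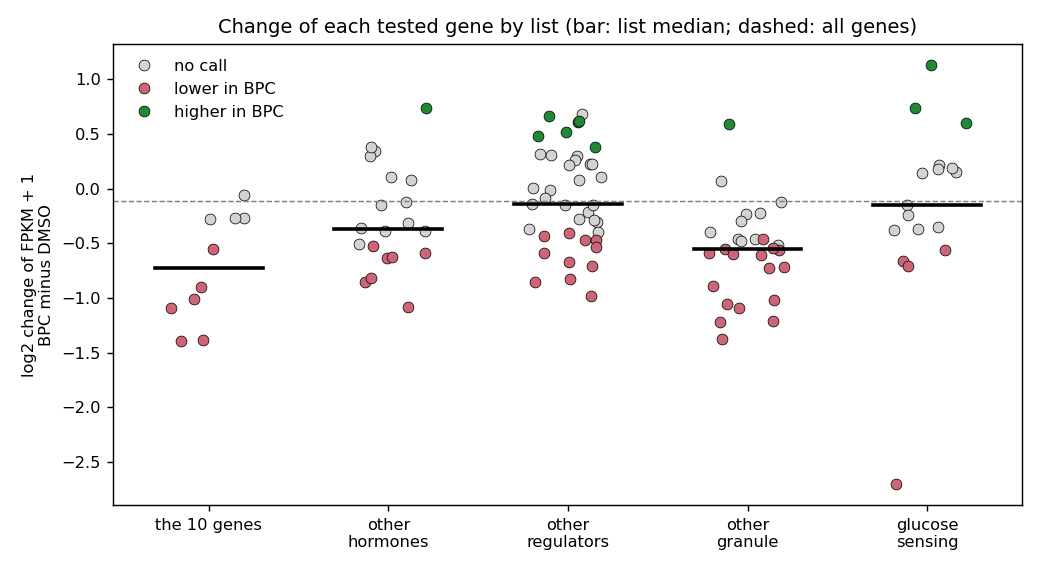
Log2 change of each tested gene, BPC minus DMSO on the log2(FPKM + 1) scale, for the 10 genes and the 4 lists of related genes, coloured by call, with a bar at each list's median and a dashed line at the median of all genes tested. The granule and exocytosis list has 16 of 27 genes lower, and gck is the lowest point of the glucose list at -2.71.

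Markers of other cells moved as well, and their part in the results above was not tested. Of 17 exocrine pancreas genes matched, 12 were tested and all 12 were called lower. Of these, 9 passed the filter only through their DMSO libraries, so that every tested gene fell is tied to that filter. With no filter 12 genes of the list were lower as well. The sum over all 17 was 92.6 to 115 FPKM in DMSO and 3.46 to 5.05 FPKM in BPC, and prss1 and cpa5 fell to between 0.626 and 2.14 FPKM in BPC. In the same libraries 4 of the 10 members (ins, pdx1, gcga and sst2) had no call, and the other 6, sst1.1 and pcsk1 among them, were lower. ela2l was too low to be tested. Of 17 neuronal genes, 13 fell, with sums of 655 to 679 FPKM in DMSO and 354 to 465 FPKM in BPC, while elavl3 and elavl4 had no call and stmn2a fell from 87.1 and 82.7 to 45.0 and 50.7 FPKM. Of 15 photoreceptor genes, 13 fell, 1 of them tested through DMSO only, with sums of 1457 to 1797 FPKM in DMSO and 49.1 to 119 FPKM in BPC. gnat2 and arr3a were among the lower ones and crx was not.

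Enterocyte genes fell in 11 of 16 cases and rose in 1, and 6 of the 11 passed the filter only through DMSO. The summed level was 2404 to 2432 FPKM in DMSO and 3074 to 3211 FPKM in BPC, and 1 gene without a call, apoa1a, made up most of it. Without apoa1a the sum was 449 to 521 FPKM in DMSO and 372 to 415 FPKM in BPC. Most of that was apoa4b.1, also without a call, at 328.6 and 256.3 FPKM in DMSO and 317.0 and 282.5 FPKM in BPC. vil1 fell from 7.98 and 6.68 to 0.201 and 0.593 FPKM, and fabp2 and slc15a1b were lower as well. Hepatocyte genes fell in 6 of 10 cases, 2 of them tested through DMSO only, with sums of 550 to 622 FPKM in DMSO and 373 to 432 FPKM in BPC. fabp10a and tfa were among those, and serpina1 was not. Of 7 enteric neuron genes, 3 fell, but with median centring 1 fell and 2 rose. phox2a and ret were among the 3 and phox2bb was not, and the sums were close, at 43.7 to 46.6 FPKM and 41.8 to 43.7 FPKM. Both BPC libraries lay above both DMSO libraries for hand2 and nos1, neither with a call in the main setting. Without hand2, the highest gene, the sums were 31.8 and 33.0 FPKM in DMSO and 25.6 and 25.2 FPKM in BPC. Of 5 tested pituitary genes 2 fell and 1 rose, but with median centring none fell and 1 rose. In the main setting pomca was lower, prl was higher and gh1 had no call. 1 of the 2 that fell passed the filter only through DMSO, and the 5 genes summed to 6.31 and 9.88 FPKM in DMSO and 6.36 and 6.65 FPKM in BPC. Without DMSO library 1 and without DMSO library 3, respectively, 3 and 3 exocrine, 3 and 4 enterocyte, 3 and 3 hepatocyte, 4 and 9 neuronal, 12 and 12 photoreceptor, 0 and 0 enteric neuron and 0 and 0 pituitary genes were lower by limma, over fewer genes where the filter then failed. None of the first 3 markers of any list was listed at 0 in a library.

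**Figure D5:**
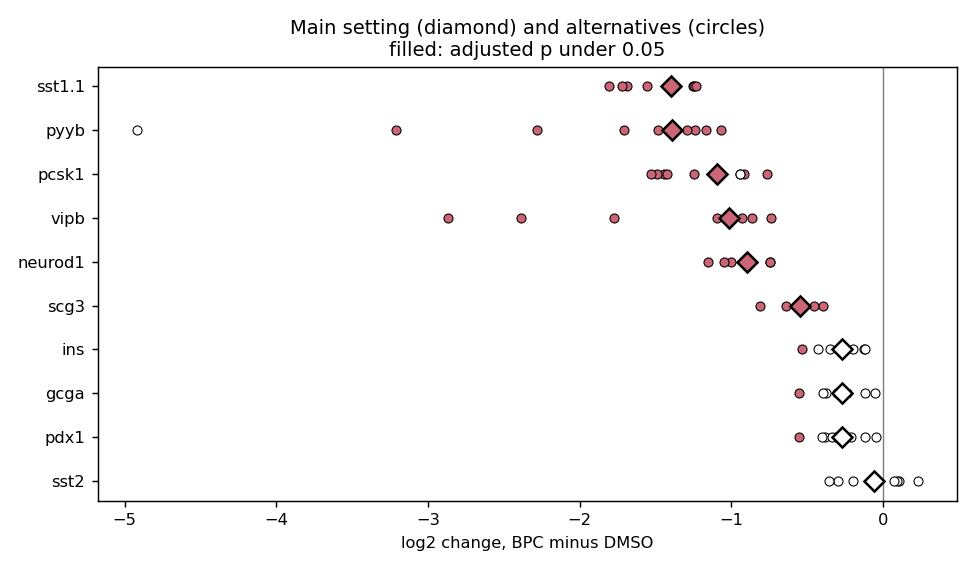
Log2 change of each of the 10 genes, BPC minus DMSO, in the main setting (diamond) and in each alternative in which it was tested (circles), filled where the adjusted p was under 0.05; pseudocounts of 0.1 and 0.01 widen the scale for low genes. sst1.1 and neurod1 are filled throughout, sst2 lies on either side of 0 and is never filled, and the 2 unfilled circles of scg3 lie behind its diamond.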

How the data were processed

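Paired-end libraries were made from poly(A) RNA with dUTP in the second strand, per the labels' protocols. The sources used here do not say whether counting used strand, so genes that overlap or lie antisense may share reads. The authors deposited FPKM per gene and library, and, per the file headers, a ratio of group means (a linear fold) with its log2, a p-value and a q-value. The submitters' processing notes list DESeq2, edgeR, StringTie 1.3.4d, HISAT2 2.0.4 and cutadapt 1.9 without their roles. For the genome build, which is not given in the sources used, no coordinates are printed.

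limma 3.58.1 in R 4.3.3 was fitted to log2(FPKM + 1) over all 4 libraries with group as the term, an intensity trend and genes of at least 0.5 FPKM in 2 libraries, two-sided. Read totals could not be recovered from the FPKM values. The limma fit was tested on simulated data, with changes placed only in genes well above the filter. That test did not cover low genes, or the matching, list counts and ratios. Members and gene lists were chosen with earlier results of these data known. Of 231 list symbols 211 were matched. All members are named. From each list of hormones, regulators, granule and glucose genes the rule named up to 6 called genes with the smallest p and the 2 with the highest mean, and from each marker list the first 3 symbols. A listed 0 may be a failed estimate. In BPC 17 genes had 0 in 1 library and at least 5 FPKM in the other, and in DMSO 1 gene did. In all, 12 alternatives were run: other pseudocounts, filters and scalings, a replicate block and leaving out each library. 0 FPKM columns were left unmatched.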

Additional observations from a re-analysis of the deposited data

How the results depend on the processing

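Over the alternatives sst1.1 and neurod1 kept their calls in 12 of 12, and vipb in the 10 in which it was tested, since without either DMSO library it misses the filter. ins, gcga and pdx1 were called lower with TPM scaling only, at log2 changes of -0.53, -0.55 and -0.55 (limma adjusted p = 0.0293, 0.0343 and 0.0394). TPM scaling moved the median change of all genes by -0.246, median centring by 0.151 and quantile scaling by 0.135. Members called lower ranged from 3 to 6 when a library was left out (3 without DMSO library 1, 4 without DMSO library 3), with 9 under TPM scaling, 5 with no filter and 5 with a pseudocount of 0.01. Over all genes, 3480 were lower and 1404 higher in the main setting. With no filter these were 2020 and 748, with median centring 1997 and 2441, with quantile scaling 2111 and 1948, and with TPM scaling 7286 and 759. Leaving out a library gave 675 to 4146 lower and 329 to 2097 higher; the group's lone library is then assumed to vary like the other group. With the replicate block 3282 genes were lower and 1333 higher, and 6 members were lower, as without it; same-numbered libraries had deviations correlated at 0.00806, and the number alone does not pair them. The cause of these shifts was not tested. The unknown depth and 2 libraries a group limit what the low genes can show.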

Other observations

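The genes annotated to hormone activity in the deposited table were looked at after the members' values were seen. Of these, 65 genes other than the members were tested, and 16 were lower (24.6%) and 5 higher (7.69%). The shares over all genes tested were 17.5% lower and 7.06% higher. Among the 16 lower genes, npy, mlnl and cga passed the filter only through their DMSO libraries, so the share of lower genes is tied in part to that filter. Among the 5 higher genes, pth1a passed only through its BPC libraries (2.075 and 1.089 FPKM, against a listed 0 in both DMSO libraries). The share of higher genes is thus tied in part to the filter as well. Several of the 65, such as npy, ccka and cort, also stand in the lists above. Counts by annotation were made in the main setting only. The genes named next were also chosen after their values were seen. nppa, an atrial natriuretic peptide gene of the heart, rose from 3.62 and 3.81 FPKM in DMSO to 26.0 and 17.9 FPKM in BPC (log2 change 2.26, adjusted p = 0.00169 by limma). nppb, a related natriuretic peptide gene, rose from 0.734 and 0.545 to 4.97 and 2.19 FPKM (adjusted p = 0.0175 by limma). crhb, a corticotropin-releasing hormone gene, fell from 1.64 and 1.96 to 0.502 and 0.530 FPKM (adjusted p = 0.0082 by limma), and trh, the thyrotropin-releasing hormone gene, from 2.34 and 2.79 to 0.928 and 1.198 FPKM (adjusted p = 0.0140 by limma). Among 48 genes other than the members annotated to endocrine pancreas development, 12 were lower and 8 higher. Of the 12, gck and pax4 passed the filter only through their DMSO libraries, so this count is tied in part to it. The 8 include the annexin genes anxa1a, anxa1c and anxa1d, whereas the related anxa1b was lower. Of 9 genes other than the members annotated to peptide hormone processing, none was lower by limma, also at an unadjusted p under 0.05. 2 of these 9, ece1 and kel, were higher. Of 8 genes other than the members annotated to type B pancreatic cell differentiation, 1 was lower and 1 higher.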
